A study of Mus musculus with 49 samples.

Results

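Genes of the splicing machinery and of its regulators were described across 49 single neurons of the developing mouse cortex. The members are the 102 genes, of 9020 in the deposited table, whose symbols begin with Srsf, Hnrnp, Snrp, Sf3a, Sf3b, Prpf, Rbm and a number, Rbfox, Celf or Elavl, or are Nova1 or Nova2. They were set in 3 classes. The core spliceosome class holds 32 genes (10 Snrp, 9 Sf3a and Sf3b, 13 Prpf), the neuronal regulator class 15 (3 Rbfox, 6 Celf, 4 Elavl, 2 Nova) and the auxiliary class the remaining 55 (10 Srsf, 18 Hnrnp, 27 Rbm). The mouse annotation names 119 protein-coding genes of this kind, and the 17 that are not listed, among them Hnrnpa1, Srsf4, Snrpa and the cold-inducible Rbm3, were not analysed here. Members were matched by symbol.

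All cells came from wild-type CD1 mice. They were labelled at E13.5 with FlashTag (FT), a dye that marks cells dividing at the ventricle, and their contents were drawn through a patch pipette from the primary somatosensory cortex at P7 (Patch-seq). The 49 cells form 1 condition without a control group, and their labels give the library pool but not the animal of a cell. They were therefore counted as 1 sample, without any test between cells. Values are RPM, reads scaled to the same total in each cell, of a library that captures the 3′ ends of transcripts, and shares of cells carry exact 95% intervals (Clopper-Pearson) for the counting error alone.

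The spliceosome removes introns from nuclear transcripts. Its small nuclear ribonucleoproteins are built on Sm proteins, encoded by Snrp genes, while the SF3A and SF3B complexes act at the branch point with the U2 particle and the PRPF proteins act at several steps of assembly and catalysis. SR proteins (Srsf) and heterogeneous nuclear ribonucleoproteins (Hnrnp) bind exons and introns and promote or repress the use of splice sites. Rbfox, Celf, Elavl and Nova proteins are sequence-specific regulators, most of them enriched in neurons, where they shape alternative splicing and the stability of messenger RNA. Celf1, Rbfox2 and Elavl1 (HuR) are among the exceptions, expressed well beyond neurons.

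The median cell had 1240101 reads, the shallowest 209850 and the deepest 35342325, so that 1 read was worth between 0.0283 and 4.77 RPM. The 4 general neuronal markers Snap25, Syt1, Stmn2 and Map2 summed to between 974 and 15044 RPM and were at 10 RPM or more in all 49 cells. The 3 excitatory markers reached that level in 45 cells, the 4 inhibitory markers in 31, the astrocyte markers in 31, the oligodendrocyte lineage markers in 34 and the microglial markers in 18. Hemoglobin genes held at least 1% of the reads in 8 cells and 68.8% in 1 of them. A single read of a gene is not specific to a cell, since the microglial C1qb was read in 38 of 49 cells (77.6%, 63.4% to 88.2%) and stood at 10 RPM or more in 11. Of the 102 members, 75 had a read in more cells than C1qb, and 93 were at 10 RPM or more in more cells than C1qb. The same shares over all listed genes were not counted, so these counts do not set the members apart from other genes. The median listed gene had a read in 37 cells, close to C1qb, and the median member in 45.

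Splicing genes were found in all 49 cells, though not the same number in each. A median of 88 members had a read in a cell (50 to 100 over cells), and 67 were at 10 RPM or more (31 to 92). Of the 9020 listed genes, a median of 6601 had a read in a cell (3302 to 8532), and 3435 did in the cell with 50 members. The number of listed genes at 10 RPM or more in a cell was not counted. Together the members took 1.69% of the reads of the median cell, with a range of 0.341% to 2.36%. The median over members of the gene's median level was 43.2 RPM, against 3.87 RPM over all listed genes, and 82 members lay above the median of all listed genes. At least 1 read in every cell was found for 22 members (21.6%), where 8.1% of all listed genes had this. A level of 10 RPM in at least 25 of the 49 cells was reached by 77 members (75.5%), against 38.2% of all listed genes. These values are descriptions of 1 sample.

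The share of reads on members was below 1% in a pair of cells, and 1.06% in the next. In 1 of them, with 225363 reads in library pool 1, it was 0.341% while mitochondrial reads took 6.36%. The other was the cell of pool 3 with 68.8% hemoglobin reads, where the share was 0.382% and 66 members had a read. RPM are shares of 1 total, so the level of every member in that cell is lowered by what hemoglobin takes.

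**Figure D1:**
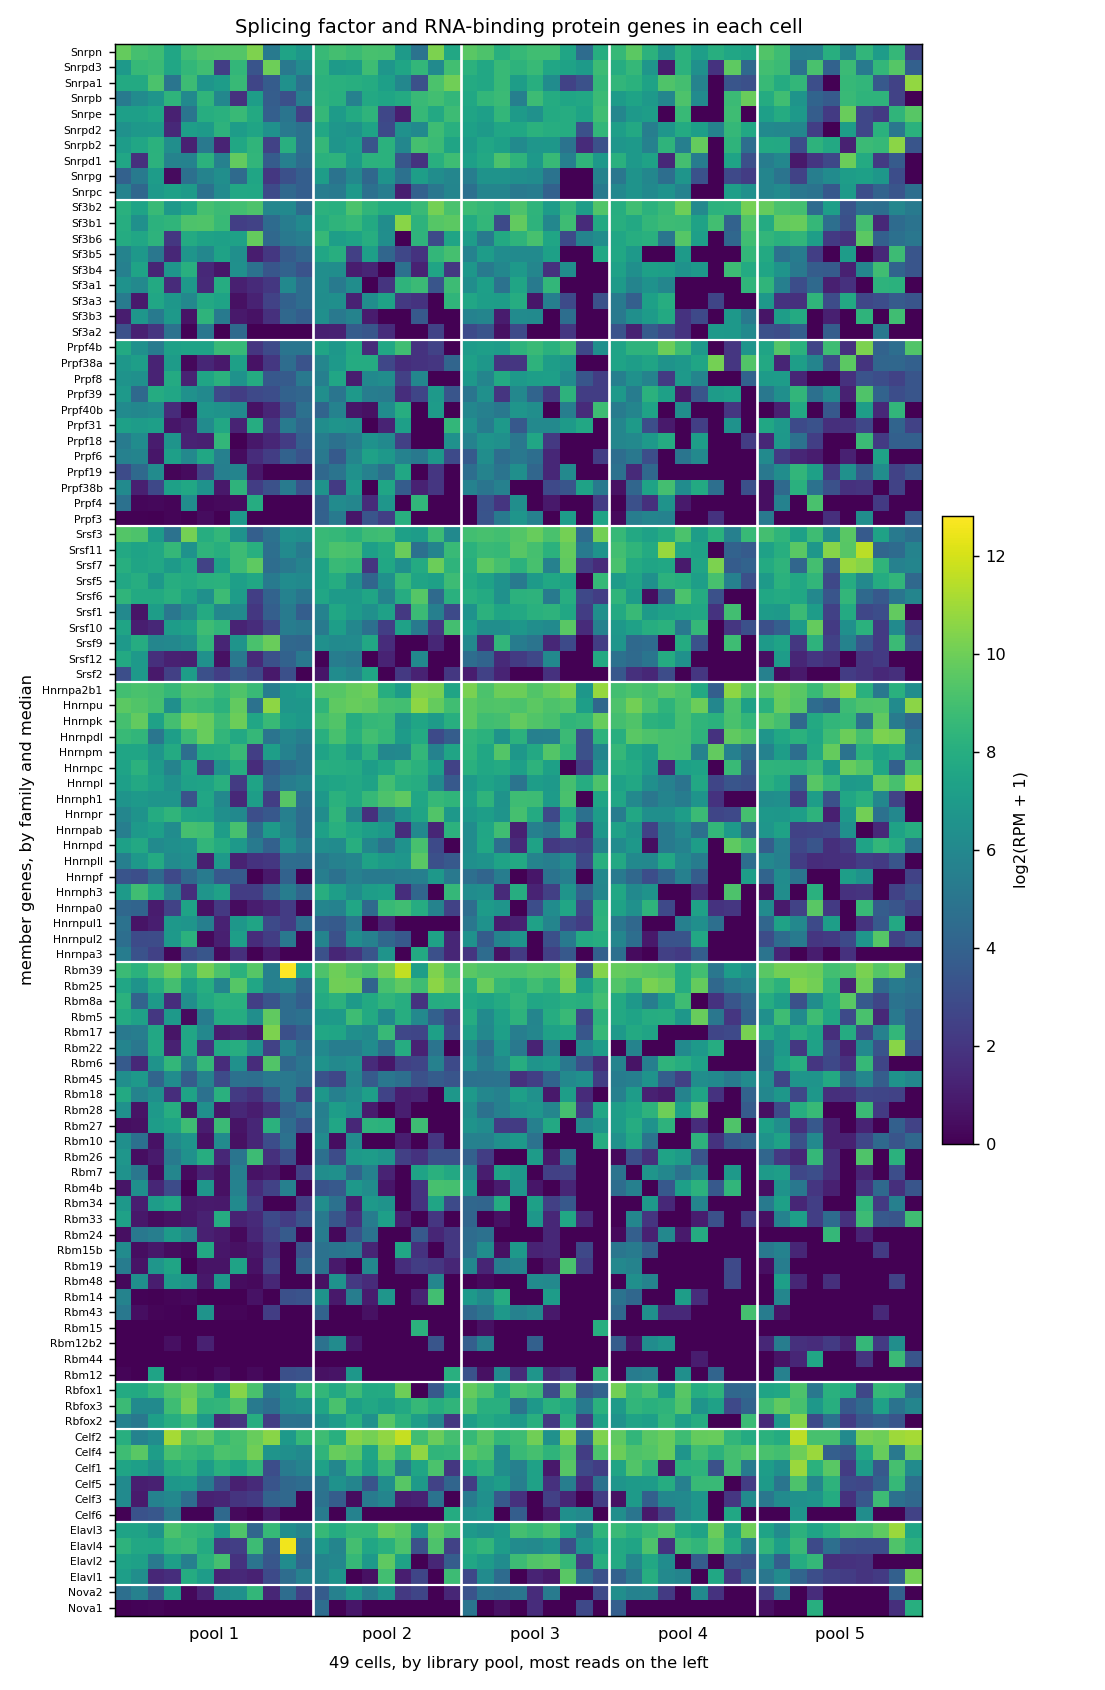
Level of the members (vertical axis, by family and median, 1 member left out) in each of the 49 cells (horizontal axis, by library pool and with the most reads on the left of each pool), as log2(RPM + 1) in colour. The upper rows of each family are filled across the pools, and the dark fields, values at or near 0, lie mostly in the lower rows and on the right of each pool, where cells had the fewest reads.

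Among the core spliceosome genes, Snrpn had the highest median level. It encodes SmN, a Sm protein found mainly in neurons, from an imprinted locus (chromosome 7, 59982495 to 60140219 in GRCm38). Snrpn had reads in 49 of 49 cells and ranged from 4.77 to 1320 RPM, with a median of 350.5. On the scale of RPM per kb of exonic length it ranked first of the 102 members, at 162. Its exons overlap those of Snurf, with which it shares a transcript, so reads of the pair cannot be told apart. Snrpb (chromosome 2, 130171414 to 130179403), its paralog for the SmB protein of most tissues, had reads in 47 cells and a median of 186.6 RPM (0 to 936). Snrpn had more reads than Snrpb in 34 of 49 cells (69.4%, 54.6% to 81.7%), fewer in 14 and as many in 1, so that the ranges over cells overlapped while the order within a cell was mostly the same. How reads that match both paralogs were counted is not given in the sources used here. Across cells the level of Snrpn had a Spearman's rho of 0.66 with total reads and of -0.50 with the mitochondrial share. The part of depth and RNA quality in its spread was not tested.

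The other Snrp genes were found in almost all cells. Snrpd3 (SmD3) had a median of 246.7 RPM and a read in 49 cells, Snrpa1 (a protein of the U2 particle) had 216.9 RPM and 47 cells, and each of the 10 Snrp genes was at 10 RPM or more in at least 25 cells. Summed, the family took 1900 RPM in the median cell (322 to 3896). The Sf3a and Sf3b genes summed to 1283 RPM (122 to 3301), with Sf3b2 at a median of 311.6 RPM (9.08 to 1149), Sf3b1, which contacts the branch point, at 263.7 (1.80 to 1498) and Sf3b6 at 159.8 (0 to 891). Sf3b2 and Sf3b1 had reads in all cells, and of the 9 genes of the family only Sf3a2 (median 2.13 RPM) stayed below 10 RPM in most cells. The Prpf genes were lower, with a sum of 976 RPM (186 to 2628), and 0 of 13 had a read in every cell. Prpf4b, a kinase of the pre-spliceosome, led with 156.6 RPM (0 to 1278), and Prpf38a had 53.6. Prpf8, the large protein at the catalytic centre, had a median of 45.3 RPM and a read in 43 cells. Prpf3 and Prpf4, proteins of the U4/U6 particle, were the lowest of the core class with medians of 0.0566 and 0.208 RPM.

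The auxiliary class held the members with the highest levels. Rbm39, a splicing factor related to U2AF, had the highest median of all members at 646.4 RPM and ranged from 11.9 to 7268. Hnrnpa2b1 followed with 593.4 RPM (13.6 to 1765), Hnrnpu, a nuclear matrix protein, with 592.4 (15.2 to 1598) and Hnrnpk with 393 (19.1 to 1187). These 4 genes were at 10 RPM or more in 49 of 49 cells. Per kb of exonic length, Rbm39 had rank 4 and Hnrnpu rank 16, so the order at the top depends on the scale. Of the 18 Hnrnp genes, 17 reached 10 RPM in at least 25 cells and 6 had a read in every cell. Hnrnpa3 was the exception, with a median of 1.64 RPM and 10 RPM in 9 cells.

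Among SR protein genes Srsf3 had 303.5 RPM (11.4 to 1152), Srsf11 260.6 (0 to 2927) and Srsf7 202.1 (0.893 to 1815). Srsf2 stood apart from them with a median of 1.80 RPM, a read in 34 cells and 10 RPM in only 8. Its exons overlap those of Mettl23 and Mfsd11 on the opposite strand, and whether reads were lost to this was not tested. Levels differed widely among the Rbm genes. Rbm25, which binds exonic enhancers, had a median of 320.5 RPM and Rbm8a, a subunit of the exon junction complex, 172.9, while 15 of the 27 did not reach 10 RPM in 25 cells. Rbm15 had reads in 3 cells (6.12%, 1.28% to 16.9%) and Rbm44 in 7 (14.3%, 5.94% to 27.2%), the fewest of all members, both below the share of C1qb.

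The typical neuronal regulator stood at a higher level than the typical core spliceosome gene. The median of the gene medians was 112.7 RPM for the 15 neuronal regulators, 46.3 for the 32 core genes and 28.9 for the 55 auxiliary genes. Per kb of exonic length the same values were 13.9, 8.09 and 4.71 RPM, against 0.764 for all listed genes. Families differed within the classes. The medians were 139 RPM for Snrp, 47.2 for Sf3 and 17.7 for Prpf, and 208 for Rbfox, 127 for Elavl, 102 for Celf and 3.04 for Nova. Per kb, Snrp had 63.7 and Rbfox, the highest neuronal family, 35.7. Of the 15, 12 were at 10 RPM or more in at least 25 cells and 6 had a read in every cell. A median of 11 of them were at 10 RPM or more in a cell (4 to 15), and 22 of the 32 core genes (8 to 31).

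**Figure D2:**
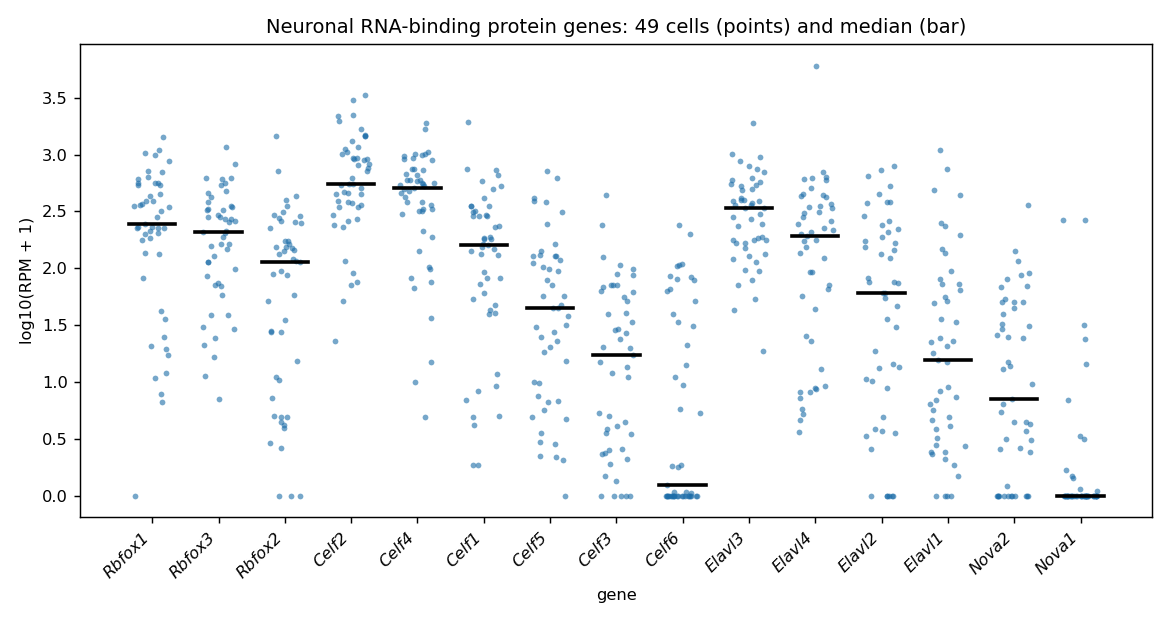
Level of the 15 neuronal regulators in each of the 49 cells (points) with the median (bar), as log10(RPM + 1), by family. Celf2, Celf4 and Elavl3 have few cells near 0, Celf6 and Nova1 have most of their cells there, and 1 cell stands apart for Elavl4 at 6067 RPM.

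The Celf family, which binds GU-rich sequences, contributed most, with 1592 RPM in the median cell (92.1 to 6795). Celf2 (chromosome 2, 6539694 to 7509563) had the highest median of the neuronal regulators, 547.8 RPM (21.8 to 3340), and Celf4 was next with 506 (3.97 to 1878). The ranges of this pair overlapped, though the highest Celf2 values exceeded every Celf4 value. Celf1, a broadly expressed paralog, had 159.9 RPM (0.862 to 1940) and also a read in all cells. Celf5 had 43.9 RPM (0 to 710) and Celf3 16.2 (0 to 442), while Celf6 was read in 28 cells (57.1%, 42.2% to 71.2%), with a median of 0.238 RPM. Within a cell, Celf2 had the most reads of the family in 31 of 49 cells (63.3%, 48.3% to 76.6%), Celf4 in 15, Celf1 in 2 and Celf6 in 1. In 28 cells at least 5 of the 6 genes were at 10 RPM or more, in 21 of them exactly 5 and in 7 all 6.

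Of the Elavl genes, which encode the Hu proteins that bind AU-rich sequences, Elavl3 (chromosome 9, 22015005 to 22052023) had the highest and most even level, with a median of 337.9 RPM (17.8 to 1885) and 10 RPM or more in all 49 cells. Elavl4 (HuD) had 193 RPM and Elavl2 (HuB) 60.2 (0 to 797), and the ubiquitous Elavl1 had 14.8 (0 to 1086). Elavl3 led the family in 25 cells (51.0%, 36.3% to 65.6%), Elavl4 in 18 (36.7%, 23.4% to 51.7%), Elavl2 in 4 and Elavl1 in 2. The 3 neuronal Hu genes were together at 10 RPM or more in 29 cells, a pair of them in 15 and 1 alone in 5.

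The Rbfox proteins bind GCAUG, and Rbfox3 is the antigen of the neuronal marker NeuN. Rbfox3 (chromosome 11, 118489762 to 118911597) had a read in 49 of 49 cells and 10 RPM or more in 48, with a median of 207.9 RPM (6.17 to 1176). Rbfox1 (chromosome 16, 5885355 to 7411526, the longest member) had a median of 246 RPM (0 to 1439) and Rbfox2 of 112.7 (0 to 1452). Rbfox1 had the most reads of the family in 28 cells (57.1%, 42.2% to 71.2%), Rbfox3 in 16 and Rbfox2 in 5, and the median share of Rbfox1 in the family's reads was 47.1%. All 3 genes were at 10 RPM or more in 34 cells, a pair of them in 12 and 1 alone in 3.

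The Nova genes, whose proteins bind YCAY clusters, had the lowest sum of the families, with 16.5 RPM in the median cell (0 to 360). Nova2 had a read in 37 cells (75.5%, 61.1% to 86.7%), which does not exceed the share of C1qb, but 10 RPM or more in 23, with a median of 6.08 RPM (0 to 360). Nova1 had a read in 13 cells (26.5%, 14.9% to 41.1%) and 10 RPM or more in 5, with a highest value of 267 RPM. Nova2 had more reads than Nova1 in 33 cells and fewer in 5, while 1 cell was tied and 10 had no read of either. Both were at 10 RPM or more in 2 cells.

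**Figure D3:**
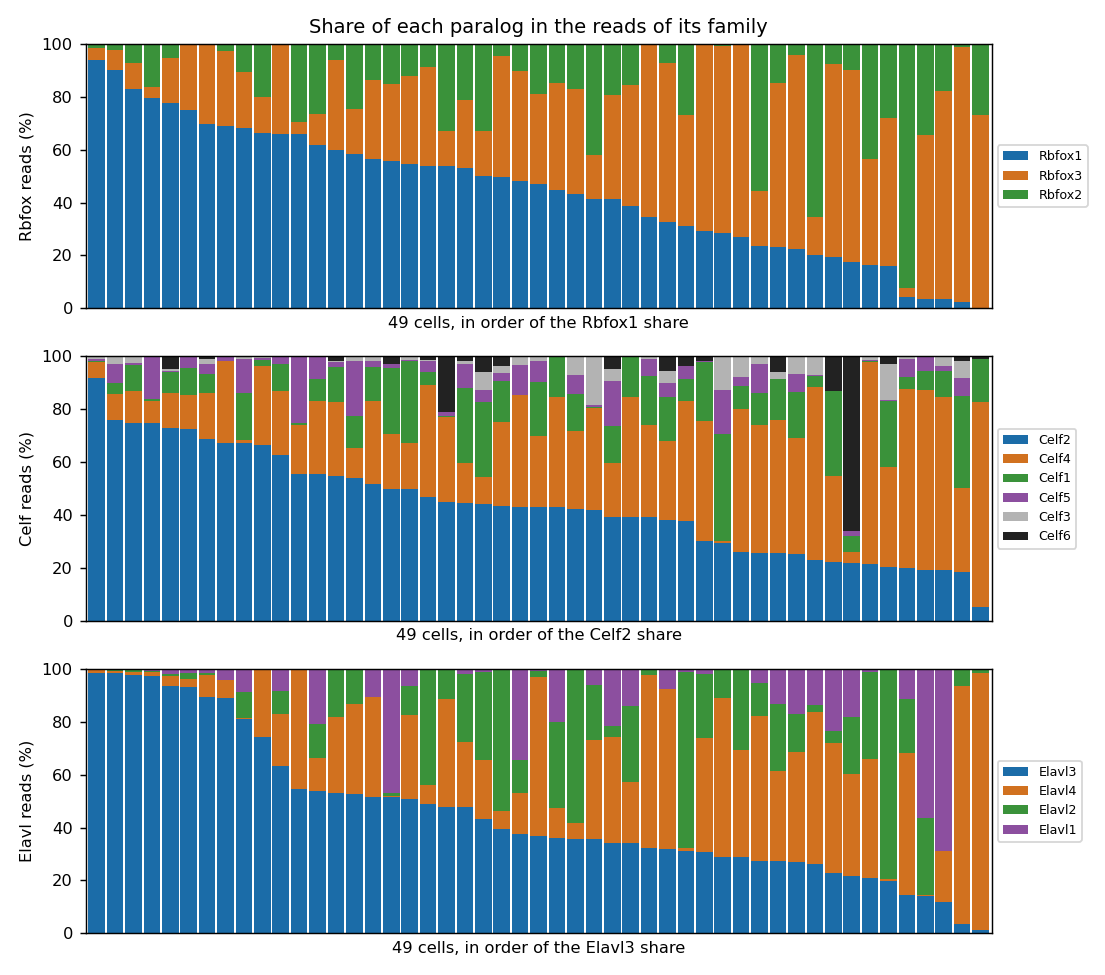
Share in percent of each paralog in the reads of its family, for Rbfox, Celf and Elavl, in each of the 49 cells, ordered in each panel by the share of the first gene named. Rbfox1, Celf2 and Elavl3 hold the largest part in 28, 31 and 25 cells, and each family also has cells in which the same gene holds a small part of the reads.

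Levels of paralogs were weakly correlated or uncorrelated across cells. Over the 49 cells Spearman's rho was 0.42 between Rbfox1 and Rbfox2, 0.28 between Rbfox1 and Rbfox3, 0.25 between Celf2 and Celf4 and -0.02 between Elavl3 and Elavl4. With the 44 cells of at least 358412 reads thinned to that depth, the values were 0.42, 0.16, 0.19 and 0.06. The median within the Rbfox family was 0.28, within Celf 0.25 and within Elavl -0.03, against 0.0962 over all pairs of listed genes at 10 RPM in at least 25 cells. Cells share their pool, their depth and the total that RPM are relative to. Rbfox genes had a median rho of 0.44 with total reads, where the listed genes at 10 RPM in at least 25 cells had 0.27. The correlations between paralogs are therefore descriptions only.

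Summed over the class, the core spliceosome took more reads than the neuronal regulators in most cells. The core genes summed to 4299 RPM in the median cell (763 to 7237) and the neuronal regulators to 3287 (315 to 10376), while the auxiliary genes summed to 8341 (1482 to 15018). The sum varied more for neuronal regulators, with a coefficient of variation (SD over mean) of 0.514 against 0.333 for the core genes. The ratio of neuronal to core reads within a cell had a median of 0.733 (0.184 to 5.54), and it was above 1 in 18 of 49 cells (36.7%, 23.4% to 51.7%). Per kb of exonic length the median ratio was 0.299, above 1 in 4 cells, and with the auxiliary genes counted in the core it was 0.242, above 1 in 0 cells. The class has 15 genes where the core has 32. Per gene, the neuronal regulators stood at 219 RPM and the core genes at 134 in the median cell, with a ratio of 1.56 (0.392 to 11.8) that was above 1 in 39 cells (79.6%, 65.7% to 89.8%). In RPM not divided by length, the direction of the balance therefore depends on whether classes or genes are compared. The ratio per gene was not computed per kb of exonic length, so its direction on that scale is not given.

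**Figure D4:**
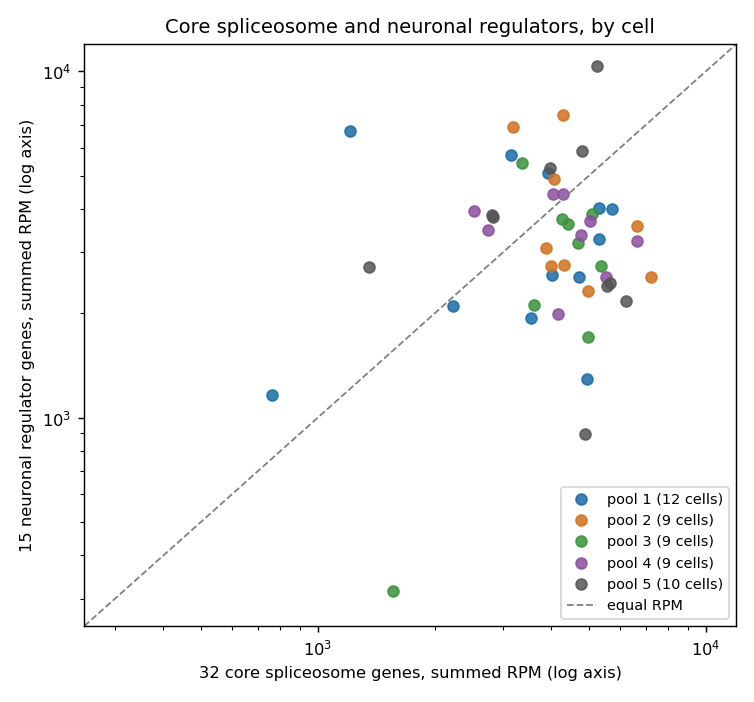
Summed RPM of the 32 core spliceosome genes (horizontal, log axis) and of the 15 neuronal regulators (vertical, log axis) in each of the 49 cells, coloured by library pool, with a dashed line at equal sums. 18 cells lie above the line, and cells of each pool lie on both sides of it.

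Spearman's rho between the core sum and the neuronal sum was -0.11 over the 49 cells. By library pool the neuronal sum was above the core sum in 4 of 12, 3 of 9, 1 of 9, 4 of 9 and 6 of 10 cells, and the median log2 ratio was -0.45, -0.54, -0.55, -0.45 and 0.35. The log2 ratio had a rho of 0.34 with the mitochondrial share, which itself had -0.44 with the core sum, and of -0.17 with total reads. With the 4 general neuronal markers the log2 ratio had a rho of 0.15, and the neuronal sum itself one of 0.40. With the summed markers of excitatory neurons the rho of the log2 ratio was -0.07, of inhibitory neurons 0.10, of astrocytes 0.07, of the oligodendrocyte lineage 0.13, of microglia -0.08 and of red blood cells -0.03. The part of these measures in the balance was not tested.

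A single gene held a larger part of the neuronal sum, over 15 genes, than of the core sum, over 32. The even share of a gene is larger in the smaller class, and the parts were not scaled by class size. The highest gene held a median of 27.4% of a cell's neuronal regulator reads (17.1% to 90.3%), and this gene was Celf2 in 23 cells, Celf4 in 9 and Rbfox1 in 7. For the core class the highest gene held 16.2% (8.10% to 45.6%), and it was Snrpn in 15 cells, Sf3b1 in 9 and Sf3b2 in 5. The cell with the highest ratio, of 258130 reads in pool 1, owed 90.3% of its neuronal reads to Elavl4. Without this cell the highest ratio was 2.17.

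Spread over cells was compared with a trend of the squared coefficient of variation on the mean over all 9020 listed genes, 49.8% of which lie above it. Of the members, 41 (40.2%) lay above the trend, 7 of 32 core genes, 26 of 55 auxiliary genes and 8 of 15 neuronal regulators. By family, 0 of 9 Sf3 and 3 of 10 Snrp genes lay above it, and 18 of 27 Rbm genes. The members farthest below were Rbm45, at -0.64 on the log10 scale, and a pair of Snrp genes, Snrpg (SmG) at -0.61 and Snrpc (a protein of the U1 particle) at -0.57. Less than 1% of the listed genes lay farther below than any of these 3. Rbm45, an RNA-binding protein gene, had a low but even level, with a median of 28.9 RPM (2.51 to 220) and a read in 49 of 49 cells.

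The members farthest above the trend were Elavl4, Rbm39 and Rbm44. Elavl4 lay 0.85 above on the log10 scale (percentile 98.4), with 6067 RPM, from 1566 reads, in the cell of 258130 reads named above. Rbm39 lay 0.46 above (percentile 93.5), and its highest value, 7268 RPM from 1876 reads, was found in the same cell. Without that cell, Elavl4 reached 703 RPM at most and lay at -0.12, at percentile 29.6. Rbm39 then reached 3226 RPM at most, and its coefficient of variation fell from 1.29 to 0.752. It lay at -0.0017, practically on the trend, so its place above the trend also rested on that cell. Rbm44 lay 0.41 above with 428 RPM in its highest cell, and 0.21 above (percentile 80.2) without that cell.

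**Figure D5:**
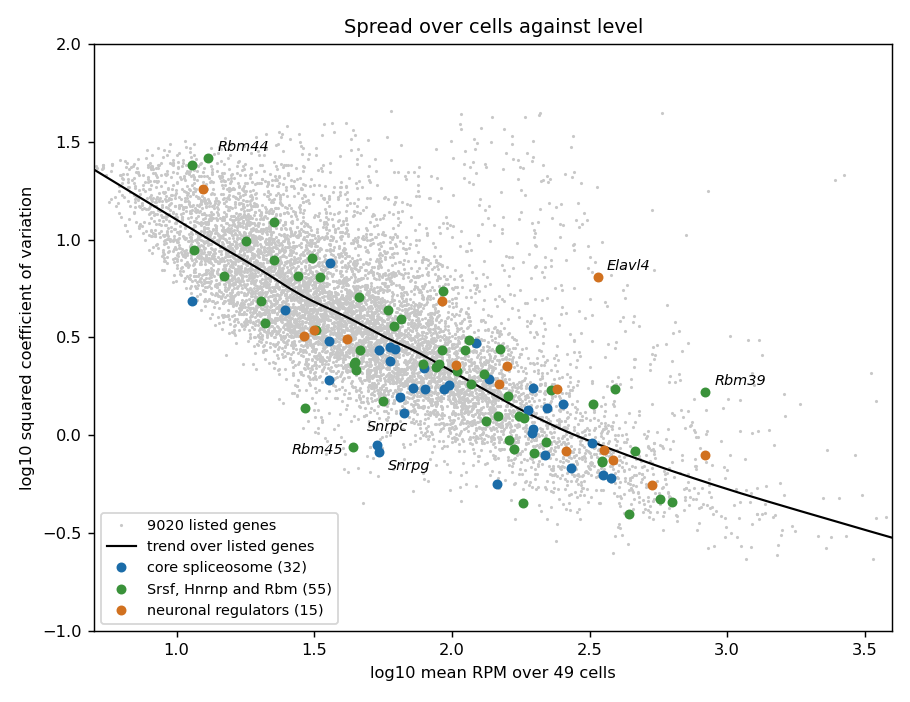
Log10 squared coefficient of variation over the 49 cells (vertical) against log10 mean RPM (horizontal) for the members, coloured by class, over the listed genes in grey, with the trend over the listed genes as a line. Snrpg, Snrpc and Rbm45 lie below the line, and Elavl4, which rests on 1 cell, lies farthest above it.

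Pairs of members were weakly correlated across cells. Over the 77 members at 10 RPM in at least 25 cells, rho had a median of 0.10 (-0.53 to 0.59 over 2926 pairs), close to the 0.0962 of all listed genes at that level. Within families the median was 0.24 for Snrp, 0.21 for Srsf, 0.18 for Sf3, 0.14 for Prpf, 0.12 for Hnrnp and 0.08 for Rbm, and between core and neuronal genes it was 0.05. The highest pair was Prpf4b with Srsf11, at 0.59. Rbm45 had the lowest rho, with Snrpd2 at -0.53, and was also low with Snrpg (-0.43), Snrpb (-0.42) and Snrpd1 (-0.39).

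The classes differ in their genes as well as in their levels. The neuronal regulators spanned a median of 124.4 kb of the genome (13.9 to 1526), the core genes 17.9, the auxiliary genes 13.8 and all listed genes 26.1. Their exonic lengths were nearer to each other, at 8.14, 5.13 and 5.71 kb, with 4.73 over all listed genes. Exons of 42 members overlap those of another annotated gene, in 33 on the opposite strand. Among these members are Srsf2, Sf3a2, Hnrnpa3 and Nova1, all of low level here. Whether reads were counted by strand, and how reads on a pair of genes were treated, is not given in the sources used here. Such genes may therefore hold reads of their neighbours or lack reads of their own.

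The promoters differ too. RefSeq windows of GRCm38.p6, from 250 bases before to 50 after an annotated start, were found for 87 members (130 windows), and 8 short motifs were searched on both strands, namely the TATA box as TATAAA, the CCAAT box, the GC box as GGGCGG, the E-box as CACGTG, the ETS core as CCGGAAG, the CRE palindrome, the NRF1 core and the CGCG element, none of which contains another. CCGGAAG, the core of sites bound by ETS factors, was found in 14 of 26 core genes (53.8%), 9 of 48 auxiliary genes (18.8%) and 0 of 13 neuronal regulators, against 20.9% of listed genes and 9.93% of all genes. By window the numbers were 15 of 33, 12 of 60 and 0 of 37, and 8.86% of all windows. The CGCG element, a palindrome, was found in 4 of 48 auxiliary genes (8.33%), namely Rbm15, Rbm26, Rbm39 and Srsf10. It was found in 0 of 26 core genes and 0 of 13 neuronal regulators. Of listed genes 1.21% held it, and of all genes 0.525%. Of the other motifs, in the order core, auxiliary and neuronal, the CCAAT box was found in 11, 24 and 8 genes, the GC box in 14, 31 and 8, the TATA box in 2, 6 and 3, the E-box in 3, 7 and 0, the CRE in 1, 0 and 2, and the NRF1 core in 0, 1 and 0. Of listed genes, 42.9% hold the CCAAT box, 71.7% the GC box, 8.91% the TATA box, 12.3% the E-box, 4.11% the CRE and 2.46% the NRF1 core. The GC box was found in 60.9% of the members matched. The ratio of observed to expected CpG had a median of 0.876 over windows of core genes, 0.906 of auxiliary genes and 0.410 of neuronal regulators, with 0.384 over all windows and 0.772 over those of listed genes. Neuronal regulators have several windows per gene, and with the highest window of each gene the medians were 0.879, 0.923 and 0.764, against 0.816 for listed genes. A match is a description of these letters and not a binding site. As examples, the 250 bases before the start follow for 3 core genes and for Celf2 and Elavl3. CCGGAAG and its reverse complement are in capitals. The 3 are the core genes of highest median level that hold CCGGAAG. Core genes without it were passed over, so the sequences do not stand for their class. The Celf2 window is the first of 5 in RefSeq and lies inside the gene as GENCODE annotates it, at an internal start, so it does not stand for the other 4.
Sf3b2 (chr19:5295458-5295707, minus strand): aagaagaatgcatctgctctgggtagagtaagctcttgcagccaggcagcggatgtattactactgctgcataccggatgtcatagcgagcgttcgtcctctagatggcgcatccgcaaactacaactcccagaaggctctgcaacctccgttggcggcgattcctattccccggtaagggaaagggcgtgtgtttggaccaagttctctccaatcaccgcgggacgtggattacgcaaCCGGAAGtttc
Sf3b6 (chr12:4817358-4817607, plus strand): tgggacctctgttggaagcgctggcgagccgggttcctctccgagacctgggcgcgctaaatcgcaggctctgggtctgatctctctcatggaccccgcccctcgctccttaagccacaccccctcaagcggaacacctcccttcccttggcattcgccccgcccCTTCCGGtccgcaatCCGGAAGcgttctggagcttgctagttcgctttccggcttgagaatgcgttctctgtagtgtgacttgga
Prpf4b (chr13:34875279-34875528, plus strand): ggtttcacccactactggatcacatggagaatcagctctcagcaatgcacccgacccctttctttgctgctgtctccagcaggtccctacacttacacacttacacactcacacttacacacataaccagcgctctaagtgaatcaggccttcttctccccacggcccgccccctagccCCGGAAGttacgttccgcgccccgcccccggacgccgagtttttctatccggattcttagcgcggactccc
Celf2 (chr2:7396199-7396448, minus strand): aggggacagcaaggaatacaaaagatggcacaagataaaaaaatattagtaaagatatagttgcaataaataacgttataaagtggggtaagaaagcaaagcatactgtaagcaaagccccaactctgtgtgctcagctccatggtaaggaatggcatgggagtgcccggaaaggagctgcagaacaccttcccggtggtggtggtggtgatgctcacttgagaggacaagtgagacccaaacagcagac
Elavl3 (chr9:22052024-22052273, minus strand): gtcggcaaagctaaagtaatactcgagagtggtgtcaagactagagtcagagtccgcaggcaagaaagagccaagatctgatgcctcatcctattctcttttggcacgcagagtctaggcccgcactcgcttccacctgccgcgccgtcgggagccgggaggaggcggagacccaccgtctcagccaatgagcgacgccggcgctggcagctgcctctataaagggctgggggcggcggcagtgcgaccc

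In these sequences the motif starts 11 bases before the start of Sf3b2 and 71 before that of Prpf4b, and Sf3b6 holds a pair of matches, at 70 and 85. The Elavl3 sequence has 20 CG dinucleotides, and the core sequences have 17, 19 and 15. The Celf2 sequence has 3, a value of this internal window only. Neither of these neuronal sequences has a match, since no window of that class held the motif.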

How the data were processed

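The authors prepared cDNA of single patched cells with the SMART-Seq v4 3′ DE kit, aligned reads to mm10 with STAR, counted them with HTSeq and deposited RPM for 9020 genes. Versions and the gene annotation are not given in the sources used here. All 9020 genes reach 100 RPM in at least 2 cells, and genes below that are not analysed here. Each value was divided by what 1 read is worth in its cell, which gave whole reads (within 0.01) for 100% of values above 0. Reads were used for detection and for thinning to 358412 reads (44 cells kept, 5 left out), RPM for levels. Without molecular identifiers in the kit, reads cannot be taken as independent molecules.

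As all cells are 1 condition, no count model and no test was run. Log2 values used a pseudocount of 1, and the spread was compared with a lowess trend (fraction 0.3) over all listed genes. RPM of a 3′ library were not divided by length except where stated. Over listed genes the median RPM had a Spearman's rho of -0.03 with exonic length. Gene coordinates follow GENCODE M21 (GRCm38). The tools were pandas 2.3.3, numpy 2.4.6, statsmodels 0.14.6, scipy 1.17.1 and matplotlib 3.10.9 in Python 3.11.15, and the trend was tested on simulated data.

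The members and lists were chosen with earlier results of these data known. Named were all Rbfox, Celf, Elavl and Nova genes, the 3 members of highest median in each other family, the 3 found in the fewest cells, the 3 farthest above and the 3 farthest below the trend, and Snrpn with Snrpb. Of these, 1 gene is not reported by name here, though counts and sums include it. The other members named, the extreme pairs, the promoter motifs and the sequences shown were chosen after values were seen. The alternatives were other limits in reads or RPM, thinning, other pseudocounts, other class definitions, other scalings and leaving out each pool.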

Additional observations from a re-analysis of the deposited data

How the results depend on the processing

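The members with a read in every cell fell from 22 to 14 after thinning to 1 depth and to 2 where 10 reads were required, and the members in at least 25 cells from 77 to 38 at 100 RPM, as stricter limits require. The median log2 ratio of neuronal to core sums, -0.45, was -2.05 with Srsf, Hnrnp and Rbm genes in the core and -1.74 per kb of exonic length. It turned positive as a difference of mean log2 levels over genes, at 0.52, 0.43 and 0.42 with pseudocounts of 1, 0.1 and 10, which weigh each gene equally. The share of cells above 1, 36.7%, was 0% with the broader core, 8.16% per kb and 22.4% without the highest member of each class. Nova2 led in 44.9% of cells, not 67.3%, where the leading gene had to have at least 10 reads. All other values computed under the other settings (81) or, added after seeing the data, without the cells rich in hemoglobin or the cell with the most Elavl4 (12) kept their direction and stayed within their limits. Among these, the members with a read in every cell rose from 22 to 31 without pool 4 and to 29 without the cells rich in hemoglobin. No paired analysis was possible because the table holds a single condition. Depth limits detection, since 1 read is worth up to 4.77 RPM, and 25 members had a median under 10 RPM.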

Other observations

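Other genes of splicing, in a list of 62 made of kinases, helicases, further particle proteins and RNA-binding regulators, were found widely too. Of the 57 listed, 11 had a read in every cell, where 8.1% of all listed genes did, and 44 were at 10 RPM or more in at least 25 cells, where 38.2% were. The median of their medians was 72.8 RPM. Son, a protein of nuclear speckles, exceeded every member with a median of 1163 RPM (23.8 to 7407), and the speckle protein Srrm2 had 554.6 (12.3 to 5991). The helicase Ddx5 had 568.2 RPM (25.8 to 1867) and Matr3 414. Of this list, 28 lay above the variability trend, as 49.8% of all listed genes do.

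Regulators of neuronal exons outside the member families differed in level. Ptbp2, the neuronal polypyrimidine tract-binding protein, had a median of 80.6 RPM (0 to 1212) and a read in 46 cells, while its paralog Ptbp1 is not listed and Ptbp3 had 0.709 RPM. Srrm3 had 61.8 RPM and Srrm4, both activators of neuronal microexons, 11.9 (0 to 545). Khdrbs3 had 73.7 RPM, Khdrbs1 22.1 and Khdrbs2 1.28. Msi1, known from neural progenitors, had a read in 18 cells, 10 RPM or more in 4 and a median of 0. Srpk1, a kinase of SR proteins, was at 10 RPM or more in 48 of 49 cells with a median of 72.8 RPM (6.08 to 1382), and Srpk2 had 266.7.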
